A study of Mus musculus with 9 samples.

Results

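The forkhead (Fox) genes encode transcription factors that share a winged-helix DNA-binding domain. A list of 39 mouse forkhead genes was read from count tables that held 48440 genes, by matching each gene identifier to its symbol, and every listed gene was present. The cells were J1 mouse embryonic stem cells of the genotype Suz12-AID, in which the Suz12 protein is fused to an auxin-inducible degron and is destroyed once the plant hormone auxin is present. RNA was sequenced in 3 biological replicates of each of 3 groups, Mock, Auxin and Re-introduction, and all of them carried the degron. Auxin cells received indole-3-acetic acid at 50 µM for 96 h. Re-introduction cells had the auxin washed out for 4.5 h, and of Mock the labels give only the name of the treatment. All cells grew on gelatin without feeder cells named in the labels, in 15% serum with leukemia inhibitory factor and the kinase inhibitors PD0325901 (1 µM) and CHIR99021 (3 µM). The labels do not say how many clones the line represents.

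PRC2, a Polycomb complex that needs Suz12, places a methyl mark on histone H3 at silent developmental genes. Many forkhead genes are switched on in only a few lineages: the Foxa genes open chromatin in endoderm, Foxc2 acts in mesoderm and vessels, Foxn4 in the retina and spinal cord, Foxj1 in cells with motile cilia and Foxp3 in regulatory T cells. Others are broadly expressed, among them the Foxo genes, which are held out of the nucleus when insulin and growth factor signals are strong, Foxm1, which drives mitotic genes, and the Foxk genes, which bind the BAP1 deubiquitinase. Foxh1, a partner of Smad proteins in Nodal signalling, and Foxd3, a factor of the pluripotent epiblast and neural crest, are known from stem cells. The 39 genes were therefore read as 12 broadly expressed genes, 2 stem cell genes and 25 lineage genes.

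The broad and lineage genes differed in structure. By the exons of the count tables (mm10), 12 of the 25 lineage genes had a single exon block and 0 of the 12 broad genes did. The median exon length was 2615 bp for lineage genes and 6555.5 bp for broad genes. Several lineage genes lay side by side. On chromosome 13, Foxq1 was followed by Foxf2 after 64.8 kb and by Foxc1 after a further 175.3 kb. On chromosome 8, 28.0 kb separated Foxf1 from Foxc2, and 9.0 kb separated Foxc2 from Foxl1. A total of 11 of the 39 genes shared exon bases with another gene, and because strand was not used in counting, reads from such stretches cannot be assigned to one of the genes.

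PRC2 in mammals is known to occupy promoters rich in CpG dinucleotides, so promoter CpG content was read beside expression. RefSeq (GRCm38.p6, the mm10 assembly) listed a window from 250 bases before to 50 bases after the start for 24 of the 39 genes. Taking for each gene the window nearest to its start in the count tables, these windows held a median of 23.5 CpG, with a range from 6 to 59, against a median of 7 over all 32851 windows. The median was 34 in 8 broad genes and 18.5 in the 16 others, and 14 of the 24 windows held at least 20 CpG, against 26.5% of all windows. The forkhead motif TGTTTAC, searched on both strands (GTAAACA on the other), was present in 1 of the 24 windows, that of Foxa1, and in 3.65% of all windows. The 250 bases before the start are printed for the Foxa genes, which include the largest rise in auxin, for Foxn4, which had the largest fall between Mock and Re-introduction, and for Foxo3, the broad gene with the largest rise. CpG dinucleotides are in capitals, and each sequence reads 5′ to 3′ on the gene's own strand.
Foxa1 (chr12:57546112-57546361, minus strand): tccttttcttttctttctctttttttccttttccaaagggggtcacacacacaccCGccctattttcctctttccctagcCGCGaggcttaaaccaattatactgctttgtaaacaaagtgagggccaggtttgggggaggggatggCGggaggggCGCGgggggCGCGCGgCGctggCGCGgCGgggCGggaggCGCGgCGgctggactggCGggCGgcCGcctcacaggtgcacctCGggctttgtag
Foxa2 (chr2:148046970-148047219, minus strand): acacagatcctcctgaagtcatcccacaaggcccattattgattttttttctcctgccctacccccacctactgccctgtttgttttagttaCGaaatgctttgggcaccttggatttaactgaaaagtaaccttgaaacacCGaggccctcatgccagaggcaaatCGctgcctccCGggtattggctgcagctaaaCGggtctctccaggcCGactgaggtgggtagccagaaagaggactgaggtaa
Foxa3 (chr7:19023540-19023789, minus strand): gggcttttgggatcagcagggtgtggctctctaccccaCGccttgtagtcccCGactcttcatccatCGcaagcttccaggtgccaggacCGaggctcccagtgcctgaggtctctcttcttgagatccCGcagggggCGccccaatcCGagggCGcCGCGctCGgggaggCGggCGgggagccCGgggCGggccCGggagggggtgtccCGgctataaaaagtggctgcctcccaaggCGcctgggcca
Foxn4 (chr5:114273762-114274011, minus strand): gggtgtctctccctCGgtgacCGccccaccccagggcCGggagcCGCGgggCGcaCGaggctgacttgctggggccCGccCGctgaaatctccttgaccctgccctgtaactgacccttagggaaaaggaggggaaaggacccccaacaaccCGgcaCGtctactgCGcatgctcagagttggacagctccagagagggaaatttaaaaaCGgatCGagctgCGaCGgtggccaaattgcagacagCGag
Foxo3 (chr10:42276696-42276945, minus strand): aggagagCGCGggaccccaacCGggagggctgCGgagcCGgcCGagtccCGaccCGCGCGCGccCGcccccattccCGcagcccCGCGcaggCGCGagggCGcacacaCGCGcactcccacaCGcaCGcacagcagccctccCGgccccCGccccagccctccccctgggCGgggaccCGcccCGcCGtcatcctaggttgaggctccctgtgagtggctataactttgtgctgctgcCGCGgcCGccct
The printed Foxo3 stretch held 31 CpG, a number reached by 5.19% of all windows over the same 250 bases. Foxa1 held 21, Foxa3 18 and Foxn4 17, and the Foxa2 stretch at the most upstream of 3 RefSeq starts held 6, which 50.4% of all windows reached. Over the full 300 bases, the Foxa2 window at that start held 12 CpG, and those at its other starts held 13 and 23. These genes were chosen after their changes were seen, so their CpG numbers cannot show whether CpG content goes with a change.

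Libraries held between 44341283 and 113931419 counts, and values below are normalised read counts as CPM, the count of a gene per 1e6 counts of its library, scaled by TMM factors from 0.905 to 1.08. Of 48440 genes, 20838 passed the filter on low counts and were tested. Auxin replicate 2 stood apart from the other libraries of its group: chi-square per gene was 62.3 and 78.4 against Auxin replicates 1 and 3, and at most 24.4 between other libraries of one group. Long genes were counted relatively lower in Mock, where log2 CPM changed by between -0.25 and -0.17 per doubling of exon length, than in Auxin (0.01 to 0.15) and Re-introduction (0.08 to 0.10). Suz12 RNA was at 133 ± 6.62 CPM in Mock, 141 ± 16.9 in Auxin and 168 ± 4.47 in Re-introduction (SD, n = 3), and RNA does not check the loss of a protein. The 8 stem cell markers read, such as Pou5f1 and Nanog, summed to 5278 to 5361 CPM in Mock, 6870 to 7323 in Auxin and 5233 to 5343 in Re-introduction, and none of them was under 0.1 CPM. Where fewer cells of a type or less RNA per cell would give the same value, bulk libraries cannot tell these apart.

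Per kilobase of exon, Foxh1 had the highest level in every group, at 33.1, 35.3 and 18.8 CPM per kb in Mock, Auxin and Re-introduction. Foxm1 (22.6), Foxp4 (21.0), Foxo4 (20.8), Foxk2 (15.6) and Foxd3 (12.0 CPM per kb) came next in Mock, and all other genes were under 10. Libraries of Foxp4 and Foxo4 overlapped in that order, as did those of Foxj3 (4.20) and Foxk1 (3.76 CPM per kb). Among lineage genes, Foxn4 (1.37), Foxa3 (1.20) and Foxo6 (1.16 CPM per kb) were highest in Mock, each overlapping the next, and no other lineage gene reached 0.2. In Auxin the order changed in that Foxo3 moved from the eighth place (7.48 CPM per kb) to the second (27.1), and its libraries overlapped neither Foxh1 nor Foxm1. After washout Foxo3 stood sixth at 12.0 CPM per kb, and Foxh1 and Foxm1 (18.6) overlapped.

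In auxin most forkhead genes that could be tested moved. Of the 25 tested, 15 rose and 5 fell (edgeR quasi-likelihood test, Benjamini-Hochberg adjusted p under 0.05). The number called was 73.2% over all genes, with 38.4% higher and 34.8% lower, so the share of forkhead genes called was near that of all genes. The median log2 fold change was 0.54 over the 25 genes and 0.05 over all genes. A rise of at least 2-fold was called for 8 of the 25, Foxa1, Foxa2, Foxq1, Foxd1, Foxp3, Foxo3, Foxj3 and Foxn3, against 19.8% of all genes. A fall of at least 2-fold was called for 0 of the 25, against 12.0%. Low lineage genes pass the filter through the group in which they are highest. The median and this split therefore describe the tested genes and cannot show a direction of the family. The 12 broad genes, all of them tested, gave 7 higher and 4 lower (median 0.44). Scaled by total counts alone, the median of all genes shifted to 0.26, 63.3% of calls over all genes were higher in place of 52.4%, and the forkhead split became 18 higher and 3 lower. Without Auxin replicate 2 it was 13 higher and 6 lower.

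The washout comparison ran mostly the other way. Against Auxin, 13 forkhead genes fell and 5 rose in Re-introduction, where 50.9% of all genes were called, 25.5% in each direction. A fall of at least 2-fold was called for 8 genes, Foxa1, Foxa2, Foxa3, Foxc2, Foxq1, Foxd1, Foxn4 and Foxo3, against 6.82% of all genes. A rise of that size was called for 0 genes, against 4.16%. The limit set by the filter on low lineage genes applies to these counts as well. The 12 broad genes gave 5 higher and 5 lower (median -0.04). Without Auxin replicate 2, 14 of the 25 fell and 5 rose. Against Mock, 9 genes were higher and 9 lower in Re-introduction, where 68.1% of all genes were called (34.7% higher, 33.4% lower). At 2-fold or more, Foxa1 and Foxp3 were higher and Foxc2 and Foxn4 lower, 2 genes each, against 15.0% and 7.43% of all genes. The comparisons share the libraries of Auxin and Mock, so that a value in one of them is not independent of the next.

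**Figure D1:**
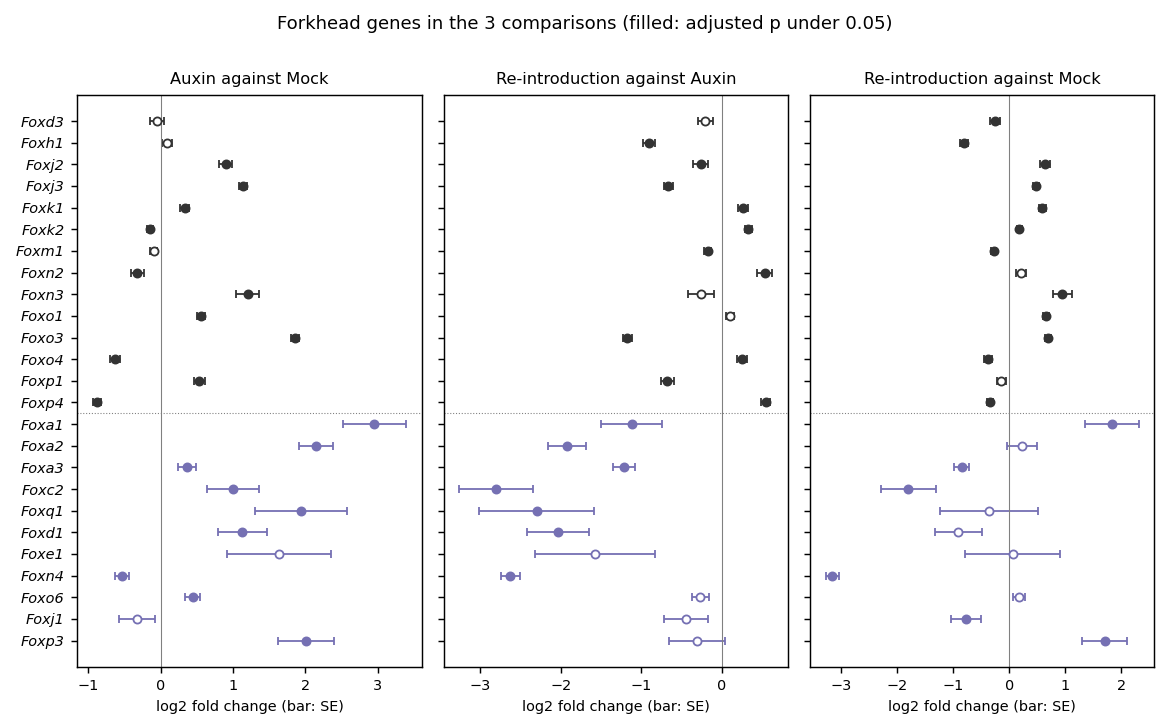
Log2 fold change (x axis) of the 25 tested forkhead genes (y axis) in the 3 comparisons, with bars for the standard error and filled points for an adjusted p under 0.05. Black points are stem cell and broad genes, purple points lineage genes. Foxa1 (2.95) lies farthest to the right in auxin and Foxn4 (-3.16) farthest to the left against Mock after washout. Scaled by total counts, Foxd3, Foxk2 and Foxm1 change sign in auxin.

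Among the broad genes, Foxo3, which carries stress and growth factor signals to cell cycle and metabolic genes, had the largest rise. It was counted at 56.1, 56.7 and 57.0 CPM in the Mock libraries, 207, 216 and 192 in Auxin, and 89.3, 91.2 and 92.2 in Re-introduction. The 3 groups did not overlap, with Auxin highest and Mock lowest. The log2 fold change was 1.86 (SE 0.0540, adjusted p = 3.19e-10 by edgeR's quasi-likelihood test) in Auxin against Mock and -1.17 (SE 0.0530, adjusted p = 2.63e-08) in Re-introduction against Auxin. Foxo1, a close relative that restrains growth signalling, was at 27.2, 29.5 and 27.2 CPM in Mock, 42.1, 40.7 and 40.9 in Auxin, with 43.8, 45.3 and 43.4 in Re-introduction. It rose by 0.56 (SE 0.0529, adjusted p = 2.11e-06) in auxin, and both Auxin and Re-introduction lay above all Mock libraries. Between them its difference was 0.10 (SE 0.0526, adjusted p = 0.142), and 0.16 and called with length and GC trends removed. With the length trend of each library removed, the auxin value was 0.12 (adjusted p = 0.0651), which is not a call. With length and GC trends removed it was 0.14 and called (adjusted p = 0.0107, edgeR).

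Foxo4, the X-linked member, went down. Its libraries gave 73.3, 70.8 and 73.2 CPM in Mock, 45.7, 51.2 and 43.7 in Auxin, with 52.9, 57.4 and 56.8 in Re-introduction. All Mock libraries were above all others, and Auxin lay below Re-introduction. It fell by 0.63 on the log2 scale in auxin (SE 0.0650, adjusted p = 4.48e-06) and rose by 0.25 after washout (SE 0.0651, adjusted p = 0.00797). Foxo6, the family member of the brain and placed here with the lineage genes, was at 3.24, 2.97 and 2.90 CPM in Mock, 4.29, 4.15 and 3.96 in Auxin, with 3.75, 3.52 and 3.03 in Re-introduction. Auxin was above all others, and Mock and Re-introduction overlapped. It rose by 0.44 in auxin (SE 0.105, adjusted p = 0.00255). After washout the difference from Auxin was -0.27 (SE 0.105, adjusted p = 0.0517), and without Re-introduction replicate 1 it was -0.36 and called (adjusted p = 0.0310), as it was scaled by total counts (-0.35) or with length and GC trends removed (-0.40).

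**Figure D2:**
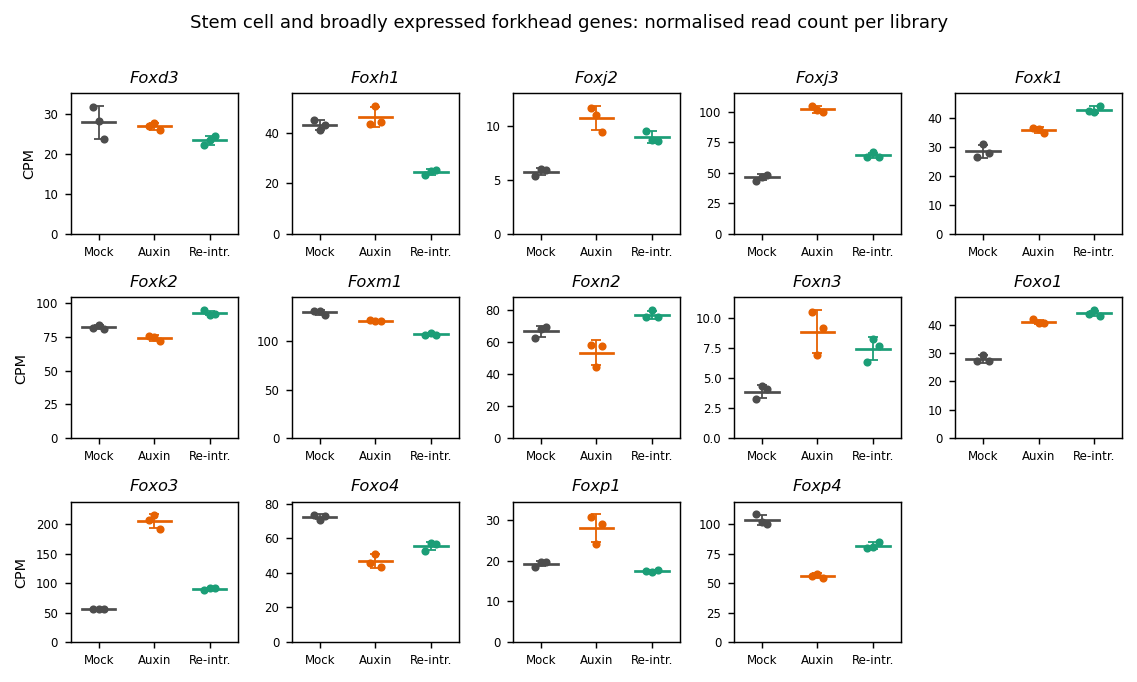
Normalised read count (CPM, y axis, from 0) of the 2 stem cell and 12 broad forkhead genes in each library of Mock (grey), Auxin (orange) and Re-introduction (green). Points are libraries, the long line is the mean and the bar the SD of 3 libraries. Foxo3 stands near 205 in Auxin, and Foxh1 near 24.5 in Re-introduction against 43.2 in Mock.

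Genes that FoxO factors are known to activate were read next to the factors. Of 18 such genes, 11 were called higher and 4 lower in auxin (38.4% and 34.8% of all genes), and their log2 fold changes had a median of 0.96, against 0.05 over all genes. Txnip, which binds thioredoxin and limits glucose uptake, was at 119 ± 4.96 CPM in Mock, 572 ± 37.7 in Auxin and 162 ± 3.62 in Re-introduction (SD, n = 3). It rose by 2.27 in auxin and fell by 1.82 after washout. Gadd45a, a stress-response gene, rose by 3.23 and then fell by 1.55, and Cdkn1b, an inhibitor of cyclin-dependent kinases, rose by 1.85 and then fell by 1.04 (largest of the 6 adjusted p, 3.41e-07, edgeR). The 4 that fell in auxin were Sod2, Trim63, Cat and Sesn1. In Re-introduction against Auxin 4 were called higher and 9 lower (median -0.34), against 25.5% of all genes in each direction. Against Mock 14 of the 18 were higher and 4 lower in Re-introduction (median 0.70), where 34.7% of all genes were higher and 33.4% lower. Of 13 kinases and modifiers of FoxO proteins, 7 were higher and 5 lower in auxin (median 0.20), where 73.2% of all genes were called. Sgk1, a kinase that phosphorylates FoxO proteins, fell by 0.91. Skp2, a ubiquitin ligase subunit also listed among Foxm1 targets, fell by 0.97 (larger of both adjusted p, 2.14e-07, edgeR).

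Foxm1, which serves mitosis, had small differences in auxin that depended on the scaling. The Mock libraries gave 131, 131 and 127 CPM, the Auxin libraries 122, 121 and 121, and the Re-introduction libraries 106, 109 and 107. The groups did not overlap, in the order Mock, Auxin, Re-introduction. The log2 fold change in auxin was -0.10 (SE 0.0436, adjusted p = 0.0632), which missed the threshold, and was called without Auxin replicate 2 at -0.10 (adjusted p = 0.0365). Scaled by total counts it was 0.11 (adjusted p = 0.0293), the opposite sign. With the length trend removed it was -0.31 (adjusted p = 2.82e-05), with length and GC trends removed -0.24 (adjusted p = 0.000102), and by DESeq2's Wald test -0.13 (adjusted p = 0.0114), all called. Foxm1 fell by 0.18 from Auxin to Re-introduction (SE 0.0437, adjusted p = 0.00536, edgeR) and by 0.28 from Mock to Re-introduction (adjusted p = 0.000184). With length and GC trends removed the fall from Auxin was -0.0849 and no longer called (adjusted p = 0.0708), and with the length trend alone removed the fall from Mock was -0.49.

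Of the 16 mitotic genes known as Foxm1 targets, 13 were called lower and 1 higher in auxin (median -0.71), against 34.8% lower, 38.4% higher and a median of 0.05 over all genes. Aurkb, a kinase of chromosome segregation, was at 74.7 ± 3.01 CPM in Mock, 28.2 ± 2.32 in Auxin and 41.9 ± 0.770 in Re-introduction (SD, n = 3) and fell by 1.41. Kif20a, a kinesin of cell division, fell by 1.07 (larger of both adjusted p, 1.89e-08, edgeR), and the gene that rose was Cdc25b, a phosphatase that activates mitotic kinases. After washout 7 of the 16 were higher and 7 lower than in Auxin (median 0.04), against 25.5% of all genes in each direction. Those counts became 4 and 5 without Re-introduction replicate 2, and 4 and 7 scaled by total counts. Against Mock 13 were lower and 1 higher (median -0.76), where 33.4% of all genes were lower and 34.7% higher.

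The stem cell gene Foxh1 did not differ detectably between Mock and Auxin and fell after washout. Mock libraries held 45.1, 41.2 and 43.3 CPM, Auxin libraries 43.3, 50.6 and 44.3, and Re-introduction libraries 23.3, 25.0 and 25.4. Mock and Auxin overlapped, and every Re-introduction library was below both. The auxin difference was 0.09 (SE 0.0701, adjusted p = 0.251), and it was 0.47 and called once the length trend was removed (adjusted p = 5.27e-06), as it was scaled by total counts (0.30). In Re-introduction Foxh1 fell by 0.91 from Auxin (SE 0.0715, adjusted p = 1.74e-06, edgeR) and by 0.82 from Mock (SE 0.0714, adjusted p = 2.08e-06). Foxd3 was at 31.9, 28.3 and 23.7 CPM in Mock, 26.9, 27.9 and 26.1 in Auxin, with 22.2, 23.5 and 24.5 in Re-introduction. Its Mock libraries spanned those of Auxin and reached into Re-introduction. Its auxin difference was -0.05 (SE 0.0932, adjusted p = 0.627), with the opposite sign scaled by total counts (0.16) or without Mock replicate 1 (0.04). It fell by 0.26 from Mock to Re-introduction (SE 0.0938, adjusted p = 0.0300). That call was lost when Mock replicate 1 (-0.18), Mock replicate 2 (-0.27), Re-introduction replicate 1 (-0.24) or Re-introduction replicate 2 (-0.26) was left out. It was also lost scaled by total counts (-0.13), with the length trend removed (-0.10) and with length and GC trends removed (-0.028, adjusted p = 0.743).

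Nodal pathway genes, which Foxh1 and Smad proteins serve, did not move together. Of 14, 6 were called higher and 5 lower in auxin (median -0.22), a share called near the 73.2% of all genes. The receptor gene Acvr1b rose by 1.11, whereas the Nodal antagonists Lefty1 and Lefty2 fell by 2.45 and 1.70 (largest of these 3 adjusted p, 1.38e-06, edgeR). Lefty1 was at 38.3 ± 6.80 CPM in Mock, 6.99 ± 1.20 in Auxin and 2.82 ± 0.525 in Re-introduction (SD, n = 3). After washout 2 of the 14 were higher and 5 lower than in Auxin, against 25.5% of all genes in each direction.

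The other broad genes moved in both directions. Foxj3, an activator known from muscle and germ cells, was at 43.5, 46.4 and 48.5 CPM in Mock, 105, 102 and 99.5 in Auxin, with 63.0, 66.8 and 63.2 in Re-introduction. The 3 groups did not overlap. It rose by 1.14 in auxin (SE 0.0555, adjusted p = 1.00e-08) and fell by 0.66 after washout (SE 0.0551, adjusted p = 2.55e-06). Its relative Foxj2 was at 5.40, 5.99 and 5.96 CPM in Mock, 11.7, 11.0 and 9.51 in Auxin, with 9.60, 8.69 and 8.59 in Re-introduction, where Auxin replicate 3 overlapped Re-introduction. It rose by 0.90 in auxin (SE 0.0924, adjusted p = 4.30e-06). Its fall of 0.26 after washout (adjusted p = 0.0322, edgeR) was lost without Auxin replicate 1 (-0.21), Re-introduction replicate 2 (-0.24) or Re-introduction replicate 3 (-0.24), as it was under removal of length and GC trends (-0.18).

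Foxn3, a repressor linked to the DNA damage checkpoint, was at 3.22, 4.30 and 4.10 CPM in Mock, 10.5, 6.93 and 9.17 in Auxin, with 6.39, 8.31 and 7.67 in Re-introduction. Every Mock library was below all others, and Auxin and Re-introduction overlapped. It rose by 1.20 in auxin (SE 0.164, adjusted p = 4.62e-05), and after washout its difference from Auxin was -0.26 (SE 0.160, adjusted p = 0.206). Without Auxin replicate 2 that difference was -0.43 and called (adjusted p = 0.00964). Foxn2, its relative, was at 62.8, 68.3 and 69.3 CPM in Mock, 58.1, 44.5 and 57.6 in Auxin, with 75.8, 80.1 and 75.7 in Re-introduction. The groups did not overlap, with Auxin lowest. It fell by 0.32 in auxin (SE 0.0922, adjusted p = 0.00823) and rose by 0.53 after washout (SE 0.0924, adjusted p = 0.000629). Scaled by total counts, the auxin value was -0.11 and not called (adjusted p = 0.332).

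Foxp4 and Foxp1, repressors that can pair with each other, moved apart. Foxp4 was at 109, 102 and 100.4 CPM in Mock, 56.5, 58.2 and 54.1 in Auxin, with 79.7, 81.0 and 85.0 in Re-introduction, without overlap between groups. It fell by 0.88 in auxin (SE 0.0541, adjusted p = 6.32e-08) and rose by 0.54 after washout (SE 0.0541, adjusted p = 1.06e-05). Foxp1 was at 18.5, 19.6 and 19.7 CPM in Mock, 30.7, 24.1 and 28.9 in Auxin, with 17.5, 17.3 and 17.6 in Re-introduction, and Auxin was above all others. It rose by 0.54 in auxin (SE 0.0819, adjusted p = 0.000108) and fell by 0.68 after washout (SE 0.0827, adjusted p = 4.90e-05). Foxp1 has the longest exons of the broad genes, 13751 bp. With length and GC trends removed its auxin value was -0.17 (adjusted p = 0.00487), the opposite direction, while its washout value was -0.68.

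The Foxk genes, repressors of autophagy and regulators of glycolysis, differed from each other. Foxk1 was at 26.5, 31.1 and 28.0 CPM in Mock, 36.7, 36.3 and 34.9 in Auxin, with 42.4, 42.0 and 44.3 in Re-introduction. It stepped up between all 3 groups without overlap, by 0.33 in auxin (SE 0.0647, adjusted p = 0.000668) and 0.26 after washout (SE 0.0645, adjusted p = 0.00658). With the length trend removed the auxin value was -0.03 (adjusted p = 0.647), and scaled by total counts the washout value was 0.18 and not called (adjusted p = 0.0507). Foxk2 was at 81.5, 83.9 and 81.2 CPM in Mock, 75.6, 75.4 and 71.9 in Auxin, with 95.0, 91.7 and 92.4 in Re-introduction, and the groups did not overlap. It fell by 0.15 in auxin (SE 0.0466, adjusted p = 0.0150) and rose by 0.32 after washout (SE 0.0467, adjusted p = 0.000161). The auxin call was lost without Auxin replicate 3 (-0.12), and scaled by total counts the value had the opposite sign (0.06). The call was also lost without the filter (-0.15), with at least 1 CPM in 3 libraries (-0.075) and in a fit of only the 2 groups (-0.11). Of 8 genes of the BAP1 complex that binds Foxk proteins, 4 rose and 4 fell in auxin, where 73.2% of all genes were called, and 2 rose and 5 fell with length and GC trends removed. Ogt, which adds N-acetylglucosamine to proteins, rose by 1.25, Mbd6 rose by 0.63, and Hcfc1, a chromatin scaffold, fell by 0.80 (largest of these 3 adjusted p, 9.37e-07, edgeR).

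**Figure D3:**
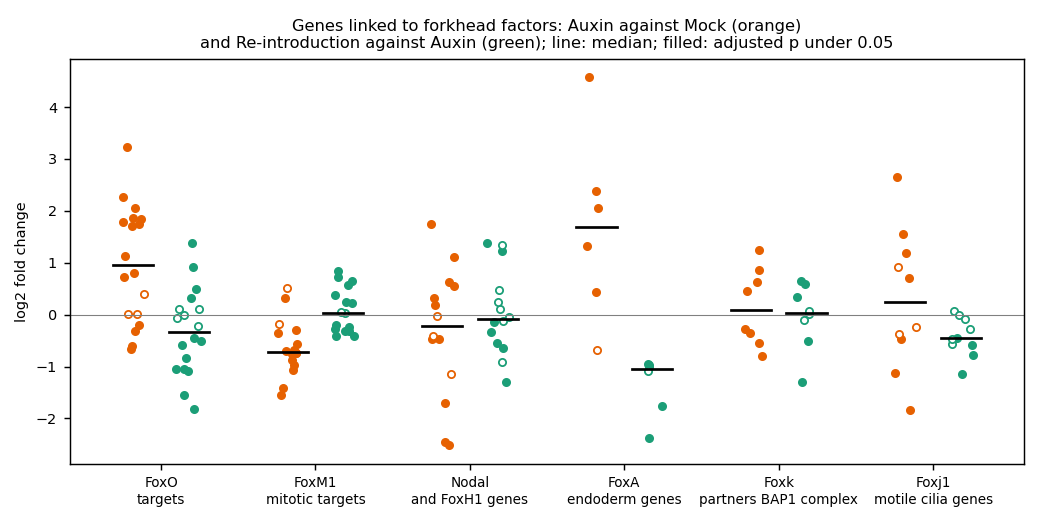
Log2 fold change (y axis) of each tested gene in 6 lists of genes linked to forkhead factors (x axis), in Auxin against Mock (orange) and Re-introduction against Auxin (green). Filled points have an adjusted p under 0.05 and black lines are medians. FoxO targets (median 0.96) and endoderm genes (1.68) lie mostly above 0 in auxin and FoxM1 targets (-0.71) mostly below.

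Lineage genes were counted low, and 11 of the 25 could be tested. Of these 11, 8 rose and 1 fell in auxin (median 1.13), and 0 rose and 7 fell after washout (median -1.57). Over all genes, 38.4% were higher and 34.8% lower in auxin, and 25.5% were lower after washout. Genes at this level pass the filter through the group in which they are highest, so these counts describe the tested genes and not the whole list. The endoderm factor Foxa1 gave 0.078, 0.169 and 0.056 CPM in Mock, 0.732, 0.551 and 1.11 in Auxin, with 0.226, 0.446 and 0.441 in Re-introduction. The 3 groups did not overlap. It rose by 2.95 in auxin (SE 0.438, adjusted p = 8.76e-05) and was still higher than Mock after washout by 1.83 (SE 0.478, adjusted p = 0.00540). Its fall of 1.12 between Auxin and Re-introduction (SE 0.379, adjusted p = 0.0287) was lost without Auxin replicate 1 (-1.19), Auxin replicate 3 (-0.81) or Re-introduction replicate 1 (-0.85).

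Foxa2, which acts with Foxa1 in gut and liver, gave 0.311, 0.398 and 0.196 CPM in Mock, 1.39, 1.35 and 1.32 in Auxin, with 0.414, 0.290 and 0.343 in Re-introduction. Auxin was above all other libraries, and Mock and Re-introduction overlapped. It rose by 2.14 (SE 0.235, adjusted p = 7.26e-06) and fell by 1.92 after washout (SE 0.238, adjusted p = 5.31e-05). Against Mock the difference after washout was 0.22 (SE 0.270, adjusted p = 0.486), and -0.01 without Mock replicate 3. Foxa3, the third of the group and a liver factor, gave 2.74, 2.28 and 2.31 CPM in Mock, 3.40, 3.36 and 2.70 in Auxin, with 1.33, 1.34 and 1.40 in Re-introduction. Mock and Auxin overlapped, and Re-introduction was below both. It rose by 0.37 in auxin (SE 0.124, adjusted p = 0.0198), a call lost without Mock replicate 2 (0.31), Mock replicate 3 (0.32), Auxin replicate 1 (0.30) or Auxin replicate 2 (0.31). It fell by 1.22 after washout (SE 0.134, adjusted p = 2.18e-05), and by 0.85 from Mock (adjusted p = 0.000188).

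**Figure D4:**
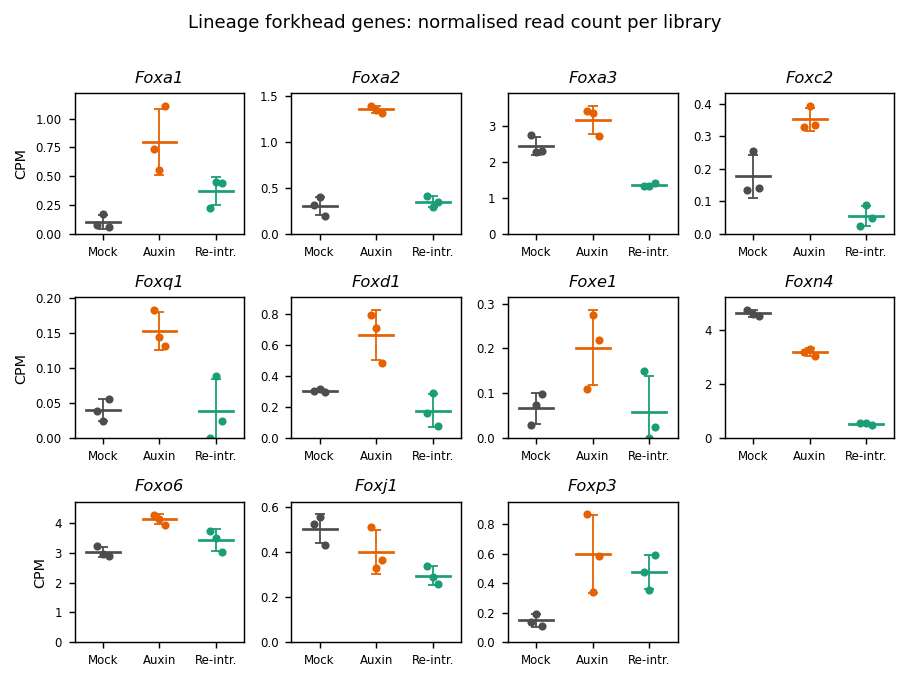
Normalised read count (CPM, y axis, from 0, with a scale of its own for each gene) of the 11 tested lineage forkhead genes in each library of Mock (grey), Auxin (orange) and Re-introduction (green). Points are libraries, the long line is the mean and the bar the SD of 3 libraries. Foxa2 is near 1.35 in Auxin alone, and Foxn4 drops to near 0.52 in Re-introduction.

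Genes of the endoderm programme around the Foxa factors were also low. Of 12 listed, 6 were tested, of which 5 rose in auxin (median 1.68) and 5 fell after washout (median -1.05), against 38.4% and 25.5% of all genes. With a minimum of 1 CPM in 3 libraries 2 genes were tested, and both rose and then fell. Gata4, an endoderm and heart factor, was at 1.70 ± 0.222 CPM in Mock, 7.02 ± 0.381 in Auxin and 3.57 ± 0.103 in Re-introduction (SD, n = 3) and rose by 2.05. Sox17, a definitive endoderm factor, rose by 2.38 (larger of both adjusted p, 0.000666, edgeR). Cer1 and Ttr were at 0 in all libraries. The 8 primitive endoderm markers, of which Gata4, Gata6 and Sox17 are also in this list, summed to 34.4 to 36.5 CPM in Mock, 55.8 to 57.3 in Auxin and 49.8 to 52.6 in Re-introduction. In auxin 7 of the 8 rose and 1 fell, against 38.4% and 34.8% of all genes. From Auxin to Re-introduction 1 of the 8 rose and 5 fell (median -0.91), against 25.5% of all genes in each direction. The part of such cells in the Foxa values was not tested.

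Of the mesoderm, gut and vessel genes, Foxc2, Foxd1 and Foxq1 could be tested. Foxc2, a factor of lymphatic vessels, gave 0.136, 0.254 and 0.140 CPM in Mock, 0.329, 0.394 and 0.336 in Auxin, with 0.0251, 0.0891 and 0.0490 in Re-introduction. The groups did not overlap. It rose by 1.00 in auxin (SE 0.355, adjusted p = 0.0247), a call lost without Mock replicate 1 (0.81), Mock replicate 3 (0.86), Auxin replicate 1 (1.04) or Auxin replicate 2 (0.91), and by DESeq2's Wald test (0.97, adjusted p = 0.0501). It fell by 2.80 after washout (SE 0.456, adjusted p = 0.000395), to below Mock (-1.80, adjusted p = 0.00697). Foxd1, a factor of kidney stroma, gave 0.301, 0.314 and 0.294 CPM in Mock, 0.793, 0.708 and 0.482 in Auxin, with 0.163, 0.290 and 0.0735 in Re-introduction. The 3 groups did not overlap. It rose by 1.13 (SE 0.340, adjusted p = 0.0108), which was lost without Auxin replicate 1 (0.97), and fell by 2.04 after washout (SE 0.387, adjusted p = 0.00115). Against Mock its difference was -0.91 (adjusted p = 0.0712), called without Re-introduction replicate 2 (-1.35, adjusted p = 0.0158).

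Foxq1, an epithelial factor, gave 0.0388, 0.0241 and 0.0560 CPM in Mock, 0.183, 0.144 and 0.132 in Auxin, with 0, 0.0891 and 0.0245 in Re-introduction. Auxin was above all others. Of its 2653 exon bases, 1010 lie in exons of another gene. It rose by 1.94 in auxin (SE 0.636, adjusted p = 0.0171), lost without Mock replicate 1 (1.91), Mock replicate 2 (1.69) or Auxin replicate 1 (1.77). It fell by 2.30 after washout (SE 0.710, adjusted p = 0.0190, edgeR), lost without Auxin replicate 1 (-2.15), Re-introduction replicate 1 (-1.62) or Re-introduction replicate 3 (-2.14). Against Mock the difference was -0.36 (adjusted p = 0.728), and 0.30 without Re-introduction replicate 1. The 8 mesoderm markers summed to 13.3 to 14.4 CPM in Mock, 3.05 to 3.63 in Auxin and 4.52 to 5.65 in Re-introduction. Of 5 tested, 1 was higher and 2 lower in auxin (median -0.62), and 1 was higher and 0 lower after washout. Over all genes, 73.2% were called in auxin and 50.9% after washout. Fibroblast markers summed to 848 to 932, 1355 to 1470 and 818 to 856 CPM, with Col3a1, Dcn, Lum and Postn under 0.1 CPM. The part of such cells in the values of these 3 genes was not tested.

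Among the tested lineage genes, Foxn4 was the 1 called lower in auxin. A factor of retinal and spinal interneurons, it gave 4.75, 4.61 and 4.52 CPM in Mock, 3.20, 3.32 and 3.05 in Auxin, with 0.540, 0.557 and 0.466 in Re-introduction. The 3 groups did not overlap, and Re-introduction was far below both others. It fell by 0.54 in auxin (SE 0.0934, adjusted p = 0.000304) and fell by 2.62 after washout (SE 0.119, adjusted p = 2.70e-08). Against Mock it fell by 3.16 (SE 0.117, adjusted p = 6.12e-09), that is 8.94-fold. The auxin value was -0.39 with length and GC trends removed, and the washout value -2.61. Neuroectoderm markers summed to 25.2 to 25.9 CPM in Mock, 62.8 to 67.4 in Auxin and 62.3 to 64.7 in Re-introduction, with Neurog2 at 0 in all libraries. Of 6 tested, 2 were higher and 2 lower in auxin (median -0.37), and 2 were higher and 1 lower after washout (median 0.07). Among all genes, 73.2% were called in auxin and 50.9% after washout. Trophoblast markers summed to 42.7 to 46.8, 117 to 131 and 107 to 110 CPM, with Elf5, Gcm1 and Plac1 under 0.1. Their part in the Foxn4 values was not tested.

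Foxj1, the master factor of motile cilia, gave 0.524, 0.555 and 0.434 CPM in Mock, 0.512, 0.328 and 0.365 in Auxin, with 0.339, 0.290 and 0.257 in Re-introduction. Mock and Auxin overlapped, and Re-introduction was below every Mock library. The auxin difference was -0.33 (SE 0.246, adjusted p = 0.251), and the difference of Re-introduction from Auxin was -0.45 (SE 0.269, adjusted p = 0.191, edgeR). Foxj1 fell by 0.77 from Mock to Re-introduction (SE 0.260, adjusted p = 0.0210), lost without Mock replicate 1 (-0.77), Mock replicate 2 (-0.73) or Re-introduction replicate 3 (-0.69), as it was under removal of length and GC trends (-0.56). Of 10 tested genes of motile cilia, 4 rose and 3 fell in auxin, where 73.2% of all genes were called. Tekt1, a structural protein of axonemes, fell by 1.84 and Ccdc40, needed for dynein assembly, by 1.12, while the dynein heavy chain gene Dnah5 rose by 2.65 (largest of these 3 adjusted p, 1.16e-05, edgeR). After washout 0 of them rose and 4 fell against Auxin, where 25.5% of all genes fell, and 2 fell without Auxin replicate 1 or with a minimum of 1 CPM in 3 libraries.

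Foxp3, the factor of regulatory T cells, gave 0.136, 0.193 and 0.112 CPM in Mock, 0.866, 0.341 and 0.584 in Auxin, with 0.477, 0.356 and 0.588 in Re-introduction. Mock was below all other libraries, and Auxin and Re-introduction overlapped. It rose by 2.01 in auxin (SE 0.389, adjusted p = 0.000656) and remained above Mock by 1.70 (SE 0.400, adjusted p = 0.00289). Between Auxin and Re-introduction the difference was -0.31 (adjusted p = 0.487), and 0.06 without Auxin replicate 1. Of its 3989 exon bases, 857 overlap the neighbours Ccdc22, Flicr and Gm36995, and reads there cannot be told apart. Flicr, a noncoding RNA at this locus, was at 0.930 ± 0.174, 1.77 ± 0.303 and 1.52 ± 0.182 CPM (SD, n = 3) and also rose in auxin (0.94, adjusted p = 0.000819, edgeR). Foxe1, a thyroid factor, was under 0.28 CPM in all libraries, with an auxin difference of 1.63 (adjusted p = 0.0599) that was called without Auxin replicate 1 (1.93). That difference was also called in 3 of 7 other alternatives. These were total counts (1.84), the length trend removed (1.74), and length and GC trends removed (1.90). After washout it was -1.57 (adjusted p = 0.100), called without Re-introduction replicate 1 (-3.56).

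The remaining 14 genes, all lineage genes, were not tested. No library held more than 23 counts of any of them, or more than 0.2805 CPM, and mates of a pair were counted separately, so that a count of 8 may be 4 fragments. Foxl1 and Foxe3 had 0 counts in all 9 libraries. With 3 fragments, or 6 counts, as the limit that 0 allows, their level was at most 0.0582 CPM in the deepest library and 0.134 in the shallowest, counting error only. Foxp2, a factor of brain circuits, held 1, 0 and 0 counts in Mock, 8, 8 and 8 in Auxin, with 8, 0 and 13 in Re-introduction. The ratio of summed counts scaled by library size was 27.2 in Auxin against Mock (exact 95% interval 4.44 to 1120.5, counting error only, with each mate taken as independent, which makes it too narrow). Foxc1, neighbour of Foxf2 and Foxq1, held 4, 2 and 0 counts in Mock, 23, 2 and 8 in Auxin, with 6, 0 and 6 in Re-introduction, so that most of its reads in Auxin came from 1 library. Foxd2 held 10, 10 and 8 counts in Mock, 2, 6 and 6 in Auxin, with 2, 2 and 4 in Re-introduction. In CPM, every Mock library of Foxd2 was above all others. Foxn1, the thymus factor, held 2, 4 and 2 counts in Mock and 0 in each Auxin library, too few to bound a fold.

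Counting by gene length moved with the groups, and broad genes, which are the longer ones, were read with and without it. With the length and GC trends of each library removed, the auxin calls were 16 higher and 7 lower, the washout calls 6 higher and 13 lower. Foxo3 stayed at 1.56, Foxa1 at 3.08, Foxa2 at 2.38 and Foxp3 at 2.07 in auxin, whereas Foxj3 went to 0.57, Foxn2 to -0.78, Foxd3 to 0.31 and Foxh1 to 0.57, all 4 still or newly called. Foxk1 became 0.06 and was not called (adjusted p = 0.358). Against Mock after washout, Foxj3 changed from 0.48 to -0.07 (adjusted p = 0.304, edgeR), Foxn2 from 0.21 to -0.37 and Foxp1 from -0.14 to -0.86. In Re-introduction against Auxin none of the 25 genes changed direction under this removal.

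**Figure D5:**
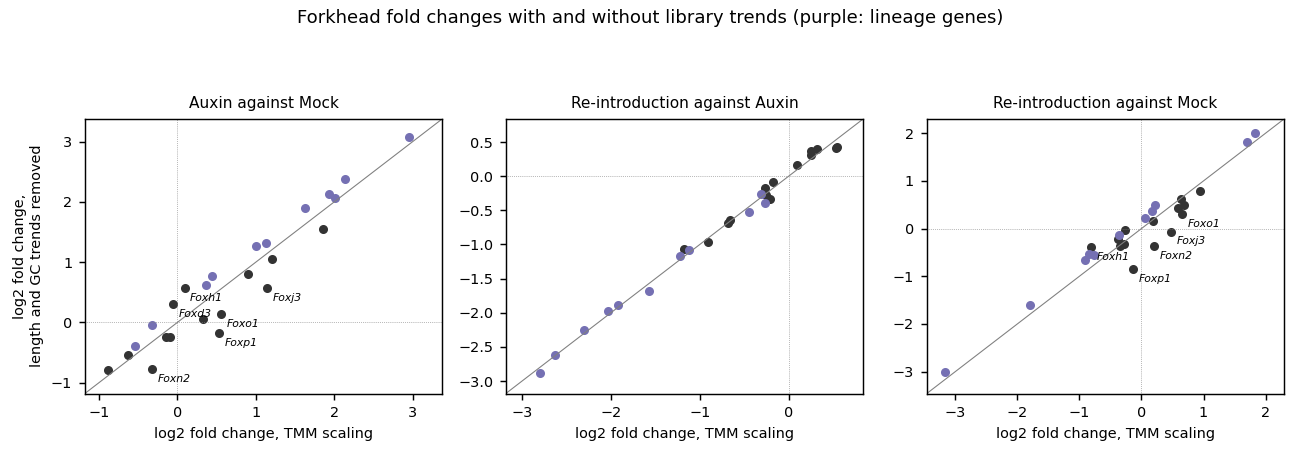
Log2 fold change of the 25 tested forkhead genes with TMM scaling (x axis) against the value after removal of length and GC trends (y axis), in the 3 comparisons. The line marks equal values, purple points are lineage genes and black points the others. Foxj3, Foxn2, Foxo1 and Foxp1 lie below the line in auxin, Foxh1 and Foxd3 above it.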

How the data were processed

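The 9 deposited files hold read counts per gene. Per the file headers, the authors counted reads with featureCounts 2.0.6 in paired-end mode over exons grouped by gene, from an mm10 annotation, with no strand setting and no normalization. Per the submitters' processing notes, Trim Galore 0.6.10, FastQC 0.12.1, Bowtie2 2.5.3 and SAMtools 1.20 were also used, in roles not given in the sources used here. Even counts were commoner than odd ones, so mates were counted singly. Per the labels' protocols, polyadenylated RNA was converted with random primers and sequenced as paired ends.

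Symbols came from a table matched on gene identifiers, which named 48058 of 48440 genes. Genes passing edgeR's filterByExpr (20838) were scaled by TMM and fitted in 1 quasi-likelihood model of all 9 libraries with group as the term (R 4.3.3, edgeR 4.0.16, limma 3.58.1). The biological coefficient of variation was 9.15%. P-values were two-sided, Benjamini-Hochberg adjustment ran over the 20838 genes, and a gene was called under 0.05. Standard errors were derived from the F statistic. CPM is given per library. The test was checked on simulated counts with few changed genes, no length trend and no outlying library. The simulation therefore says nothing about those features of these data. Totals ranged from 44341283 to 113931419 counts.

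Alternatives were DESeq2 size factors and the DESeq2 1.42.0 Wald test, total counts, other filters, only the groups compared, a replicate block, removal of length trends alone or with GC content (GENCODE M21 longest transcripts, 99.2% of genes), halved counts, a 2-fold minimum and each library left out. The forkhead genes, gene lists and tests were chosen with earlier results of these data known. Named with values in every library were stem cell and broad genes, lineage genes averaging 0.5 CPM or more in a group, and lineage genes called at 2-fold with at least 0.1 CPM. Of each pathway list the 3 genes with the smallest p in auxin were named, and any other gene was named after its values were seen. The promoter sequences printed were chosen after the values were seen. Dnai1 and Dnai2, listed as cilia genes, matched no symbol.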

Additional observations from a re-analysis of the deposited data

How the results depend on the processing

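Tested values of the 25 forkhead genes were recomputed under each alternative. Outside the fits that leave out a library, 656 values kept direction and call, 32 gained a call, 17 lost one and 14 reversed. With a library left out, 409 kept both, 6 gained a call, 29 lost one and 6 reversed. With a 2-fold minimum, calls over all genes were 6625 in Auxin against Mock, 2289 in Re-introduction against Auxin and 4664 in Re-introduction against Mock, and forkhead calls were 8 higher and 0 lower, 0 higher and 8 lower, and 2 higher and 2 lower. Forkhead genes called lower in auxin were 3 scaled by total counts and 3 in a fit of only the 2 groups. Scaled by total counts, auxin values reversed for Foxd3 (0.16), Foxk2 (0.0643) and Foxm1 (0.11). With at least 1 CPM in 3 libraries Foxd3 was 0.018. With the length trend removed, Foxd3 (0.12), Foxk1 (-0.0335) and Foxp1 (-0.13) reversed in auxin and Foxj3 (-0.0926) and Foxn2 (-0.14) against Mock after washout. With length and GC trends removed, Foxd3 (0.31) and Foxp1 (-0.17) reversed in auxin and Foxj3 (-0.0675) and Foxn2 (-0.37) against Mock after washout. By the DESeq2 Wald test Foxe1 was -0.0745 against Mock after washout. The cause of these changes was not tested. Leaving out a library reversed 6 values, whose lowest and highest values over those fits were as follows: Foxd3 in auxin -0.17 to 0.0395 (without Mock replicate 1), Foxp3 between Auxin and Re-introduction -0.602 (without Auxin replicate 2) to 0.0566 (without Auxin replicate 1), and against Mock after washout Foxa2 -0.0115 (without Mock replicate 3) to 0.427, Foxq1 -1.54 to 0.305 (without Re-introduction replicate 1) and Foxe1 -1.94 (without Re-introduction replicate 1; -0.376 without Mock replicate 1) to 0.473. Over the fits with a library left out, calls over all genes ranged from 14381 to 16236, 9142 to 11581 and 13106 to 13465 in the 3 comparisons. Forkhead calls were 12 to 15 higher and 4 to 6 lower in auxin, 5 higher and 10 to 14 lower in Re-introduction against Auxin, and 9 higher and 7 to 9 lower against Mock. Replicate numbers are shared between groups. Deviations of same-numbered libraries correlated between -0.172 and 0.0547 over 9 pairs, and those of other numbers between -0.177 and 0.239. Mock replicate 3 correlated best with its own number, Auxin replicate 3 (0.0547), but no library did so in both other groups. The numbers were therefore not taken to pair libraries. With a replicate block, calls over all genes were 14808, 9829 and 13639, and forkhead calls were 15 and 5, 5 and 13, and 9 and 9 (higher and lower). Under it the washout call of Foxj2 was lost (adjusted p = 0.0510) and Foxo6 was called (adjusted p = 0.0475). Without the filter, Foxp2 and Foxc1 were also called in auxin. Removal of length and GC trends turned the FoxO kinases against Mock after washout from 8 higher and 3 lower to 4 and 7, cilia genes from 4 and 4 to 0 and 4, and BAP1 complex genes in auxin from 4 and 4 to 2 and 5, an alternative chosen for these lists after seeing the data. Depth limits the lineage genes, most of which held fewer than 1 CPM.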

Other observations

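Forkhead genes outside the list also moved, and they are given here after their values were seen. Foxi3, a factor of ear and branchial arch development, was at 1.49 ± 0.149 CPM in Mock, 7.55 ± 0.404 in Auxin and 4.73 ± 0.453 in Re-introduction (SD, n = 3). It rose by 2.35 in auxin on the log2 scale and fell by 0.67 after washout (adjusted p = 0.000224, edgeR). Foxr1 was at 1.32 ± 0.307, 0.181 ± 0.00979 and 0.277 ± 0.0775 CPM and fell by 2.87. Foxr2, an X-linked gene active in the germ line, was at 3.89 ± 0.202, 0.290 ± 0.0807 and 0.722 ± 0.280 CPM, fell by 3.75 in auxin and rose by 1.38 after washout (adjusted p = 0.00207, edgeR).

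Some opposite-strand transcripts of forkhead genes could be tested, although their host genes could not. Foxl2os was at 0.0319 ± 0.0148 CPM in Mock, 0.342 ± 0.112 in Auxin and 0.0919 ± 0.0322 in Re-introduction (SD, n = 3), rose by 3.40 in auxin and fell by 1.88 after washout (adjusted p = 0.00335, edgeR). Foxd2os fell by 1.63 after washout (adjusted p = 0.0193, edgeR), with a difference of 0.75 in auxin (adjusted p = 0.152). Counting did not use strand, but in the annotation used for counting the exons of Foxl2 and Foxd2 shared 0 bases with any other gene.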
